A study of Mus musculus with 8 samples.

Results

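The AP-1, ATF and immediate early genes followed here are 10 genes: Fos, Fosb, Jun, Junb, Jund, Atf3, Atf4, Egr1, Ier2 and Dusp1. A peak was counted for one of them when its summit lay in the GRCm38 body of that gene. A summit outside protein-coding genes was counted when the nearest gene bound within 100 kb was a bound of that gene. All 10 were found among the 21900 protein-coding genes of the annotation, and 9 peaks of the deposited lists met the rule, each from Brg1 after dTAG-13. The lists hold 5 peaks for EBF1 after dTAG-13, 312 for EBF1 in DMSO, 5206 for Brg1 after dTAG-13 and 234 for Brg1 in DMSO.

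The cells were pro-B cells, early B-lineage cells, transformed with the Abelson virus A-MuLV, in which EBF1 carrying a dTAG degron stood in for the endogenous protein, in treated and control cells alike. EBF1, the early B-cell factor, was precipitated from the EBF1-dTAG_C line, and Brg1, the motor subunit of BAF, a complex that moves nucleosomes, from the EBF1-dTAG_N line, where EGS was used for fixation besides formaldehyde. Treated cells had 0.5 µM dTAG-13, a compound that directs dTAG proteins to degradation, for 6 h, and control cells had DMSO, for which the treatment labels give 6 h and the titles 0 h. With 1 library in each group, differences between conditions could not be set against a replicate spread and were not tested, and EBF1 was not mapped in the line used for Brg1. At marker genes of the labelled cell type, 8 of 9 early B-lineage markers had a Brg1 peak after dTAG-13, against 12.2% of all protein-coding genes. In DMSO 5 of 9 had one, against 0.817%, and Pax5, Cd79a, Igll1 and Blnk were among those with a peak in both. Of markers of other cell types, Cd3d had a Brg1 peak after dTAG-13 among 5 T-cell genes, and 0 of 4 myeloid and 0 of 3 erythroid genes had one. With so few genes these counts are near the 12.2% of all genes.

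Immediate early genes are switched on within minutes of a signal at the cell surface, without new protein synthesis. Fos and Jun proteins pair through leucine zippers to form AP-1, which binds the sequence TGANTCA, and ATF and CREB proteins bind the cyclic AMP response element, TGACGTCA. In B-lineage cells these genes respond to receptor and kinase signalling, and MAP kinase phosphatases such as Dusp1 switch that signalling off again.

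The genes are short. Their median length was 3.03 kb, from 1.52 kb for Ier2 to 13 kb for Atf3, against a median of 17.1 kb for all protein-coding genes. The stretch from which a gene can draw peaks under the rule, its body and its share of the gaps beside it, had a median of 28.6 kb for the 10 genes and 45.8 kb for all genes. The genes differed widely in this, from 4.8 kb for Atf4 and 7.9 kb for Junb to 114 kb for Fos and 138 kb for Jun.

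RefSeq promoter sequences of GRCm38.p6 were at hand for 8 of the 10 genes, all but Egr1 and Ier2. The 250 bases before the start of 5 of them are shown: Jun, Jund and Atf4, because a Brg1 summit lay within 1 kb of the start, and Fos and Dusp1, because both lacked a peak. Capitals mark the cyclic AMP response element, its core TGACG, and the variant TGACATCA, on either strand, so that CGTCA is the core on the other strand. The variant was added to the search after the sequences had been seen.
Jun, chr4:95052223-95052472, minus strand: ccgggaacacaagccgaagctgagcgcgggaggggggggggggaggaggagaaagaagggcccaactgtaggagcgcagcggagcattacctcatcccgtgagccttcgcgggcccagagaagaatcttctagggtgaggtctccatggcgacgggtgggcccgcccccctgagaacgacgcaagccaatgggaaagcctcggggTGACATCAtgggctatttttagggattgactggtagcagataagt
Jund, chr8:70697489-70697738, plus strand: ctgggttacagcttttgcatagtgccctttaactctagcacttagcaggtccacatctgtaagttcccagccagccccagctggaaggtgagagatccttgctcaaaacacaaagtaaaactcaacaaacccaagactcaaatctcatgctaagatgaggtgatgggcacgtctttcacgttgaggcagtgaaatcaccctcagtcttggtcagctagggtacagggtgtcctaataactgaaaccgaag
Atf4, chr15:80254934-80255183, plus strand: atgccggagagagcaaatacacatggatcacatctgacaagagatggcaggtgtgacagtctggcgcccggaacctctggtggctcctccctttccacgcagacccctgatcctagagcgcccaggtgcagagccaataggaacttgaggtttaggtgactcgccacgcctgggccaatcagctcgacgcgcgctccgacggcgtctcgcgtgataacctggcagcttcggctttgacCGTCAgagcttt
Fos, chr12:85473640-85473889, plus strand: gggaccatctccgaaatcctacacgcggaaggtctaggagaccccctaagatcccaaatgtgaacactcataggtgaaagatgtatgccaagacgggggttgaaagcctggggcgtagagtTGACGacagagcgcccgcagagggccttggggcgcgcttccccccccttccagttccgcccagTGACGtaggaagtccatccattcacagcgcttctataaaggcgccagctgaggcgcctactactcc
Dusp1, chr17:26508473-26508722, minus strand: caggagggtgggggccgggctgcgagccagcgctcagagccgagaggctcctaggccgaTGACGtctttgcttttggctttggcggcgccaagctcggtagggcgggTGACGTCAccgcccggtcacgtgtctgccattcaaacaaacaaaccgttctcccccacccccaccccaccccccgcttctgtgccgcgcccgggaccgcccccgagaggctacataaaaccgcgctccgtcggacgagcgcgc

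The core TGACG stood in 6 of the 8 upstream sequences (Fos, Fosb, Junb, Atf3, Atf4 and Dusp1) and in 20.3% of the 17492 promoters of the same length. The full element TGACGTCA, which contains the core on each strand, was found in Dusp1 alone, from position -143 to -136 before the start, and in 2.01% of promoters. Jun held the variant TGACATCA at -45 to -38, a form found in 2.92% of promoters. The AP-1 letters TGANTCA were found in 0 of the 8 and in 6.22% of promoters. The CArG box bound by serum response factor was in 0 of the 8 and in 1.39%, and the EBF1 letters, TCCC and GGGA separated by 2 bases, in 0 of the 8 and in 0.818%. The Sp1 letters GGGCGG were in 5 of the 8 (Fos, Fosb, Jun, Atf3 and Dusp1) and in 42.7% of promoters. The ETS core CCGGAA was in Atf4 alone and in 15.2% of promoters, and the ATF4 composite letters TGATGNAA were in Atf3 alone and in 3.26%. All motifs were read on both strands, and a match describes the letters only. The search covered these upstream sequences alone, so a motif absent from them, such as the CArG box, may lie farther from the start. Egr1 and Ier2, for which no sequence was at hand, were not searched. The upstream sequences had a median GC content of 63.2%, against 55.2% for all promoters, with Jund lowest at 47.6%. Of the 8 genes, Fosb, Atf3 and Atf4 had both the core and a Brg1 peak after dTAG-13, Fos, Junb and Dusp1 had the core and no peak, and Jun and Jund had peaks and no TGACG core.

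EBF1 had no peak at any of the 10 genes, in 0 of 10 after dTAG-13 and in 0 of 10 in DMSO. Over all protein-coding genes, 0.0228% had an EBF1 peak after dTAG-13 and 1.28% in DMSO, so an absence from 10 genes is near that background. Within 100 kb of the 10 genes there was 1 EBF1 summit, in DMSO, at chromosome 4, 94999446 to 94999606, which lay 49.6 kb from Jun. It was assigned to Mysm1, a histone deubiquitinase, at 20317 bp, and stood at rank 290 of the 312 EBF1 peaks in DMSO, with an authors' fold enrichment of 4.17. Fold enrichment, −log10 p and −log10 q here are the authors' own values for each peak against a local background. Whether that background came from the library itself or from its input is not stated. The next EBF1 summits in DMSO were 135 kb from Fosb, 165 kb from Jund, 275 kb from Atf3 and 304 kb from Fos, and those of the other 5 genes lay 751 kb or more away. After dTAG-13 the nearest of the EBF1 summits was 165 kb from Jund.

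Brg1 had peaks at 6 of the 10 genes after dTAG-13 and at 0 of 10 in DMSO. Over all protein-coding genes, 12.2% had a Brg1 peak after dTAG-13 and 0.817% in DMSO. The 6 genes were Jun, Jund, Fosb, Atf3, Atf4 and Ier2, and the 4 without were Fos, Junb, Egr1 and Dusp1. The 10 genes were chosen with earlier results on these lists known, so the 6 of 10 is given as a description beside the background. Per length, the 9 peaks of the 10 genes stood in 0.486 Mb, or 18.5 peaks per Mb, and all assigned Brg1 peaks after dTAG-13 in 1929 Mb, or 2.5 peaks per Mb. Their surroundings held peaks as well: of 31 Brg1 summits after dTAG-13 within 100 kb of the 10 genes, 22 were assigned to other genes. The density is therefore not shown to be particular to the 10 genes. The count of 6 rests on peaks of moderate height. It was 3 for peaks with a fold enrichment of 5 or more and 0 when the −log10 q had to reach 10. Among the 234 highest peaks, as many as the DMSO list holds, it was also 0. Such cuts leave fewer peaks at genes of any kind, and the share of all genes was not computed for them. These counts are therefore not to be set against the 12.2%.

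**Figure D1:**
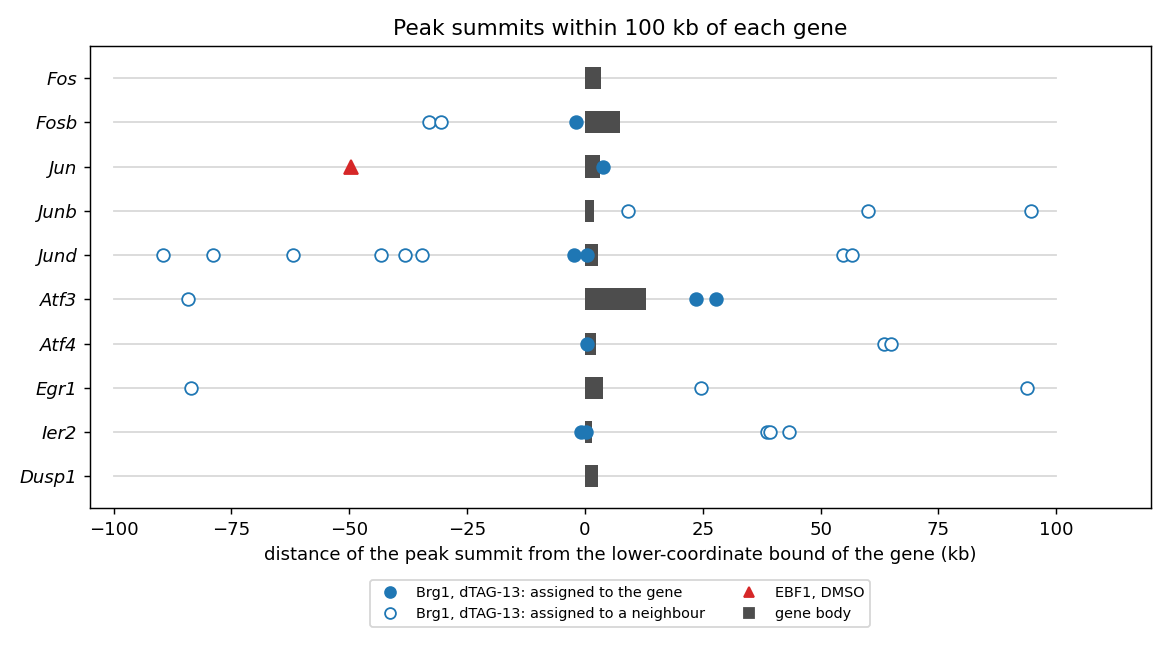
Peak summits within 100 kb of each of the 10 genes, one gene per row, with the distance from the lower-coordinate bound of the gene in kb on the horizontal axis and gene bodies as dark bars. Filled circles are Brg1 summits after dTAG-13 assigned to the gene, open circles those assigned to a neighbour, and the triangle is the EBF1 summit in DMSO; no Brg1 summit in DMSO and no EBF1 summit after dTAG-13 fell in these windows. The 9 filled circles lie at or within 14.7 kb of 6 genes, and Fos and Dusp1 have no summit in their windows.

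Among the Jun family, Jun itself, the partner of Fos in AP-1 (gene ID 16476, chromosome 4, 95049036 to 95052222, minus strand), had 1 Brg1 peak after dTAG-13, at chromosome 4, 95052853 to 95053070. Its summit lay 728 bp upstream of the start, with 17 fragments (95% Poisson interval 9.9 to 27.2, which like all such intervals here covers counting error only), an authors' fold enrichment of 4.59 and a −log10 q of 4.71. The edge of this peak was 381 bp from the Jun sequence shown above. The summit also lay inside Junos, a long non-coding RNA gene beside Jun, 633 bp from its nearest bound. The nearest Brg1 peak in DMSO was 14082 kb away.

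Jund, the Jun family member that many cells keep expressed (gene ID 16478, chromosome 8, 70697739 to 70700616, plus strand), had 2 Brg1 peaks after dTAG-13, their summits 2.81 kb apart. The one inside the gene, at chromosome 8, 70698156 to 70698402, had its summit 543 bp downstream of the start, with 20 fragments (12.2 to 30.9) and a fold enrichment of 5.22. The other, at 70695110 to 70696183, was the widest of the 9 peaks at 1074 bp, and its summit lay 2266 bp upstream of the start with 19 fragments (11.4 to 29.7) and a fold enrichment of 3.86. The Jund surroundings held the most Brg1 summits of the 10 windows, 10 within 100 kb. The 8 not assigned to Jund went to Ssbp4, Lrrc25, Gdf15 (a stress-induced cytokine), Pgpep1 with 3, Pde4c and Rab3a. The highest of these, inside Pgpep1, had 25 fragments and stood 43.4 kb from Jund at rank 447 of 5206.

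Junb, a Jun family member (gene ID 16477, chromosome 8, 84976909 to 84978748), had no peak under the rule, although 3 Brg1 summits after dTAG-13 lay within 100 kb. The nearest, at chromosome 8, 84985637 to 84986284, was 7.39 kb from Junb but 2633 bp from Hook2, which took it, and held 18 fragments with a fold enrichment of 5.58. The others were inside Tnpo2, a nuclear import receptor, and Dhps, the deoxyhypusine synthase. The 7.9 kb from which Junb can draw peaks under the rule thus held no summit, although the wider surroundings were not empty.

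Of the Fos family, Fosb (gene ID 14282, chromosome 7, 19302696 to 19310118, minus strand) had 1 Brg1 peak after dTAG-13, at chromosome 7, 19300722 to 19300986. Its summit lay 1884 bp beyond the end of the gene and 9233 bp downstream of the start, with 21 fragments (13 to 32.1) and a fold enrichment of 4.45. It stood 19 bp outside Gm26802, a long non-coding RNA gene. Further Brg1 summits in the window went to Vasp, an actin regulator, 30.4 kb and 33.1 kb from Fosb. Fos itself (gene ID 14281, chromosome 12, 85473890 to 85477274) had no Brg1 or EBF1 summit within 100 kb. Just outside that limit, a Brg1 summit after dTAG-13 lay 101 kb from Fos, inside Tmed10, a transport protein of the early secretory pathway, with 18 fragments.

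Of the ATF factors, Atf3, a stress-induced repressor (gene ID 11910, chromosome 1, 191170296 to 191183333, minus strand), had 2 Brg1 peaks after dTAG-13, both upstream. The summit at chromosome 1, 191197833 to 191198359, lay 14711 bp before the start and had 25 fragments (16.2 to 36.9), a fold enrichment of 5.01 and a −log10 q of 7.74, the highest of the 9. That at 191193820 to 191194451 lay 10543 bp before the start, 4.17 kb from the first, with 16 fragments (9.15 to 26) and a fold enrichment of 4.76. The nearest Brg1 peak in DMSO, at 191458343 to 191458797, was 275 kb from Atf3 and overlapped an EBF1 peak in DMSO and a Brg1 peak after dTAG-13, but it was assigned to Ppp2r5a, a regulatory subunit of protein phosphatase 2A. Atf4, the effector of the integrated stress response (gene ID 11911, chromosome 15, 80255184 to 80257545, plus strand), had 1 Brg1 peak, at chromosome 15, 80255357 to 80255758. Its summit lay 467 bp downstream of the start with 17 fragments (9.9 to 27.2), and its fold enrichment of 3.47 and −log10 q of 2.85 were the lowest of the 9. Its edge was 174 bp from the Atf4 sequence shown above. A higher peak in the same window, with 22 fragments and a fold enrichment of 7.12, lay 62.5 kb away inside Cacna1i, a calcium channel gene.

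Of the other immediate early genes, Ier2, a nuclear protein induced by growth factors (gene ID 15936, chromosome 8, 84661331 to 84662852), had 2 Brg1 peaks after dTAG-13 with summits 904 bp apart. The summit at chromosome 8, 84660073 to 84660651, lay outside the gene, 775 bp from its lower-coordinate bound, with 18 fragments (10.7 to 28.4) and a fold enrichment of 5.47, the highest of the 9. That at 84661393 to 84661597 lay inside, 129 bp from the same bound, with 15 fragments (8.4 to 24.7), the fewest of the 9, and a fold enrichment of 4.59. Within 41.7 kb of Ier2, further summits were assigned to Trmt1, with 2, and to Lyl1, a haematopoietic transcription factor. Egr1, a zinc finger factor (gene ID 13653, chromosome 18, 34861207 to 34864956), had no peak under the rule, and its nearest Brg1 summit, 20.9 kb away with 15 fragments, went to Etf1, a translation termination factor. The others in its window went to Kdm3b and Hspa9. Dusp1, which dephosphorylates MAP kinases (gene ID 19252, chromosome 17, 26505591 to 26508472), had no summit in its window; the nearest Brg1 summit after dTAG-13 was 113 kb away inside Ergic1, with 27 fragments.

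In all, 31 Brg1 summits after dTAG-13 fell within 100 kb of the 10 genes, of which 9 were assigned to them and 22 to other genes. In the same windows there were 0 Brg1 summits in DMSO.

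A summit stood within 1 kb of a gene bound for 5 of the 9 peaks, those at Jun, Atf4 and Ier2 and the Jund peak inside the gene, against 18.2% of all 5206 Brg1 peaks after dTAG-13. By gene this is 4 of 10, against 4.2% of protein-coding genes. The summit was in the gene body for 3 of the 9, against 52.1% of the list. The 10 genes have a median length of 3.03 kb against 17.1 kb, and a summit inside a short gene lies near a bound by geometry. Summits outside genes are bounded too, by the share of the gaps that the rule gives to each gene. Body and gaps together had a median of 28.6 kb, against 45.8 kb for all genes. The list also holds peaks assigned to no gene, 4748 of its 5206 being assigned. What sets these shares was not tested. Nothing particular to the 10 genes is read from them. Of the 6 genes, 3 held 2 peaks, against 37.1% of all genes with a Brg1 peak that held 2 or more. No Brg1 peak overlapped any of the 8 upstream sequences, where 1.6% of all promoter sequences of that length were overlapped.

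The 9 peaks stood in the middle of their list. By −log10 p they ranked 803 and 2446 (Atf3), 1174 and 3243 (Jund), 1289 and 2895 (Ier2), 1794 (Fosb), 2425 (Jun) and 4308 (Atf4) of 5206, and their median percentile was 53.2. Their median fold enrichment was 4.59 and their median of fragments at the summit 18, against 4.45 and 18 for the whole list. The median width was 402 bp, against 323 bp for the list. In height the 9 peaks were thus near the medians of their list, with the Atf4 peak lowest at percentile 16.6 and the farther Atf3 peak highest at percentile 84.4.

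**Figure D2:**
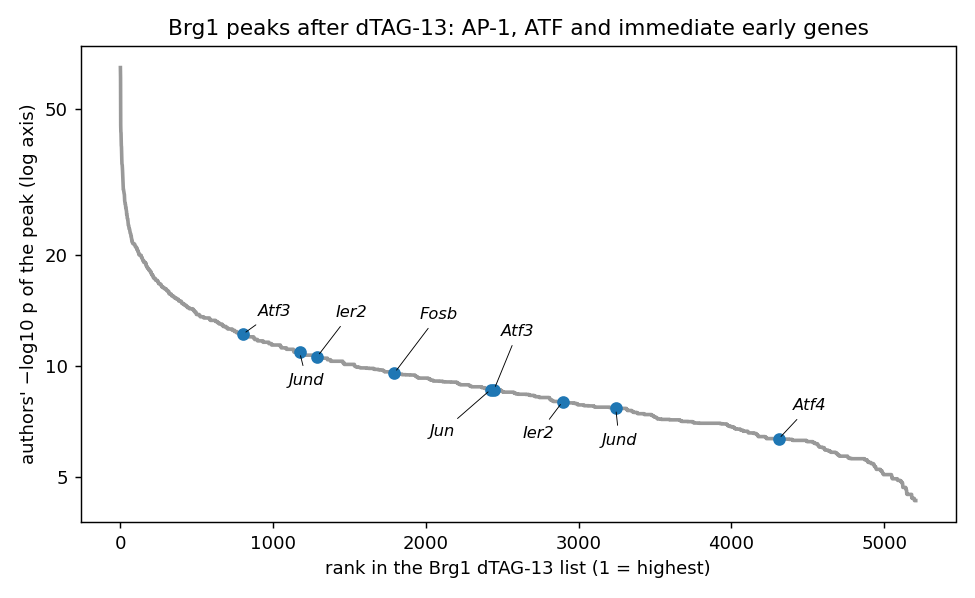
Rank of each Brg1 peak after dTAG-13 (horizontal axis, 1 is the highest) against the authors' −log10 p on a log axis, with the whole list of 5206 peaks as a grey line and the 9 peaks of the AP-1, ATF and immediate early genes as points. The points run from rank 803 at Atf3 to rank 4308 at Atf4, spread over most of the list.

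The last comparison asked which of these peaks were found in both conditions. Of the 9 Brg1 peaks after dTAG-13, 0 overlapped a Brg1 peak in DMSO (exact Clopper-Pearson 95% interval up to 33.6%), against 2.42% of the whole dTAG-13 list, so 0 of 9 is near the background. Likewise 0 of 9 overlapped an EBF1 peak in DMSO, against 1.09% of the list. The libraries differed in depth. The lowest local background, taken as the genome-wide one, was 2.15 fragments in the dTAG-13 library and 0.607 in the DMSO library, 3.54 times as much. The 9 summits had 15 to 25 fragments after dTAG-13, against at least 8 at any Brg1 summit in DMSO, which scales to 28.3 at the dTAG-13 depth. Scaled to the DMSO depth the 9 summits would hold 4.24 to 7.07 fragments, and 0 of 9 would reach the 8 of the shallowest DMSO peak. Of all 5206 peaks, 5.21% would reach it, and of these 18.1% overlapped a DMSO peak. By the ratio of the median backgrounds, 3.14, the highest of the 9, the farther Atf3 summit, would hold 7.97 fragments. Its 7.07 under the first scaling stands just above the 7 that reach the list's weakest p at the lowest DMSO background. The local background at this summit was, however, 1.95 times the lowest of the dTAG-13 library. A higher background needs more fragments for the same p, so 7.07 is not shown to be enough. At the other 8 summits, the scaled values lay below the cut-off under each of these settings. These are point values. Among these 8, the Poisson interval of the fragments reaches 32.1 at Fosb, 30.9 and 29.7 at Jund and 28.4 at the outer Ier2 summit. Each limit is above the 28.3, so counting error could carry these summits over. Brg1 at an unchanged level could thus readily have been missed at all 9 summits. Their absence from the DMSO list does not show less Brg1 there, and treatment and depth cannot be told apart. The 8 are the fewest fragments of any DMSO peak and need not suffice at these summits, where the local background reached 1.95 times the lowest. How much more Brg1 in DMSO would have given a peak was therefore not determined. No Brg1 peak in DMSO was called at any of the 6 genes.

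**Figure D3:**
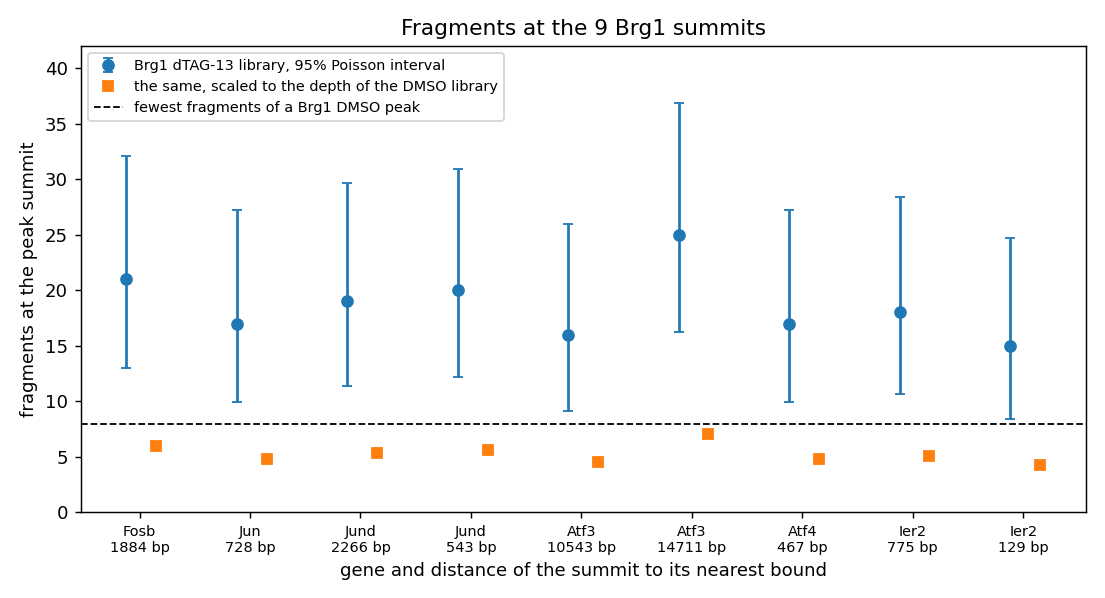
Fragments at the summits of the 9 Brg1 peaks after dTAG-13, labelled by gene and by distance of the summit to the nearest gene bound. Circles are the fragments with 95% Poisson intervals, squares the same summits scaled to the depth of the DMSO library, and the dashed line the fewest fragments of any Brg1 peak in DMSO; all 9 squares, at 4.24 to 7.07, lie below the line at 8.

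Beyond the 10 genes, 5 related lists gave Brg1 peaks after dTAG-13 at varying shares. In DMSO 0 genes had a Brg1 peak in each of the 5, against 0.817% of all genes. With lists this short, 0 is near that share, and the DMSO library was the shallower of the 2. Within 1 kb of a gene bound the dTAG-13 counts were 3 of 20, 3 of 25, 3 of 8, 2 of 15 and 1 of 15, in the order below, against 4.2% of all genes. The stretches from which these genes can draw peaks were not compared. Among AP-1 and ATF relatives, 4 of 20 (20%) had a Brg1 peak after dTAG-13, against the 12.2% of all genes. They were Atf6, a sensor of unfolded protein, with 5 peaks, Creb1, the cyclic AMP response element binding protein, Maff, a small Maf protein, and Batf2, an AP-1 family member. The 3 highest were at Atf6 (18 fragments, inside the gene), Creb1 (16 fragments, 495 bp from the gene) and Maff (13 fragments, inside the gene). The other Fos and Batf relatives, Fosl1, Fosl2, Jdp2, Batf and Batf3, had none.

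Among other immediate early genes, 8 of 25 (32%) had a Brg1 peak after dTAG-13, against 12.2% of all genes. The highest were at Klf2, a Krüppel-like factor (24 fragments, 14953 bp from the gene), Zfp36l2, which promotes decay of mRNAs (21 fragments, 40612 bp from the gene), and Myc, the growth regulator (16 fragments, 390 bp from the gene). The RNA-decay factors Zfp36 and Zfp36l1 had peaks as well, and none of Egr2, Egr3, Egr4, Nr4a1, Nr4a2 and Nr4a3 did. EBF1 in DMSO had a peak at 1 of the 25 (4%, against 1.28% of all genes), 14278 bp from Btg2, an antiproliferative gene, and it overlapped no Brg1 peak.

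MAP kinase phosphatases had a Brg1 peak after dTAG-13 at 4 of 8 (50%), against 12.2% of all genes, and Dusp1, their best known immediate early member, had none. Dusp5 had 33 fragments with a fold enrichment of 8.68 at chromosome 19, 53528516 to 53529674, which was 278 bp from the gene and ranked 56 of 5206. Dusp6, which acts on ERK, had 32 fragments 1397 bp from the gene (rank 103), and Dusp2 had 25 fragments 813 bp from the gene (rank 179). The highest peak at each of these 3 genes, and that at Dusp4 (rank 290), stood above all 9 peaks of the AP-1, ATF and immediate early genes, of which the highest ranked 803. EBF1 in DMSO had peaks at Dusp2 and Dusp5, 2 of 8 (25%), against 1.28% of all genes. At Dusp2 the EBF1 peak at chromosome 2, 127335064 to 127335624, 684 bp from the gene, overlapped the Brg1 peak of the dTAG-13 list at 127335097 to 127335793. No EBF1 peak was called there after dTAG-13, in a list of only 5 peaks, and no Brg1 peak was called there in DMSO. The 25 fragments of the Brg1 peak are below the 28.3 that match the shallowest DMSO peak at the dTAG-13 depth. EBF1 and Brg1 were also mapped in different lines, and a change at this site was not tested.

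Upstream factors and kinases had a Brg1 peak after dTAG-13 at 7 of 15 (46.7%), against 12.2% of all genes. The highest were at Map2k1, the kinase that activates ERK (25 fragments, inside the gene), Rps6ka1, a kinase downstream of ERK (26 fragments, 4118 bp from the gene), and Elk3, a partner of serum response factor (25 fragments, 25079 bp from the gene), and Srf itself had 1 inside the gene with 25 fragments. Integrated stress response genes had one at 3 of 15 (20%, against the same 12.2%): Eif2ak3 and Eif2ak4, kinases that phosphorylate eIF2 alpha, and Ddit4, an inhibitor of mTOR signalling. Ddit3, Trib3, Asns and Chac1, all targets of Atf4, had none.

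**Figure D4:**
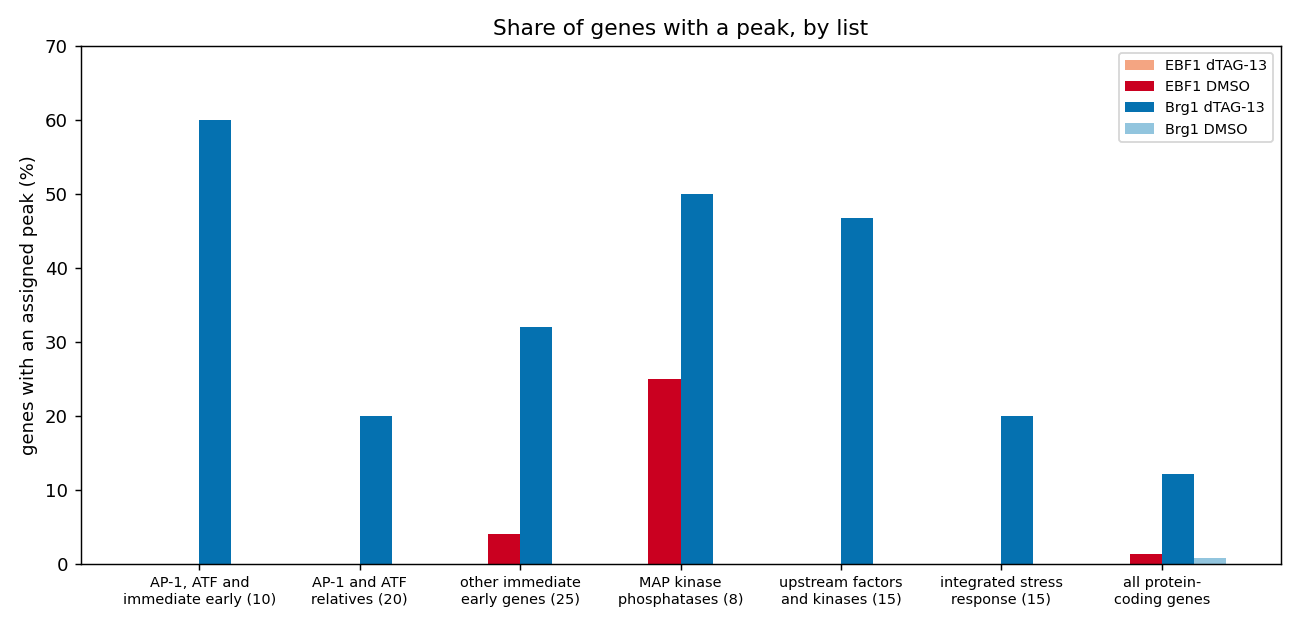
Percent of genes with an assigned peak in each of the 4 peak lists (vertical axis), for the 10 AP-1, ATF and immediate early genes, 5 related lists with their sizes in brackets, and all 21900 protein-coding genes. For Brg1 after dTAG-13 6 of the 10 genes have a peak against 12.2% of all genes; for Brg1 in DMSO and for EBF1 in both conditions the 10 genes have no bar.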

How the data were processed

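ChIP-seq peak lists of 4 immunoprecipitations were used, and the 4 inputs were not analysed here. MACS2 2.2.7.1, Bowtie2 2.3.5.1, deepTools 3.3.2 and SAMtools 1.10, with GRCm38 and mm10, are named per the submitters' processing notes. The calling settings and controls are not given in these sources. The authors deposited a fold enrichment (a linear ratio), −log10 p and −log10 q for each peak, a score that is 10 times the −log10 q, and another value, the summit offset. Peak names carry 1 library each, so calling was per library.

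Fragments at Brg1 summits and local backgrounds were solved from the deposited fold (pileup plus 1 over background plus 1) and the Poisson p, and came out whole within 0.02 on the −log10 p for 100% of peaks. The solution, the assignment and the overlaps were tested on simulated data. Median fragments were 18 after dTAG-13 and 13 in DMSO. Fragments were not recovered for EBF1.

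Summits were assigned with the GRCm38.p6 gene bounds, overlaps needed 1 bp, and gene starts and strands came from the RefSeq promoter table. The genes and lists were chosen with earlier results of these data known. The text names all 10 genes and their peaks, every gene of a related list with a DMSO peak, the 3 highest of each list after dTAG-13, and whichever gene took a neighbouring peak; other list genes were named after their values were seen. No p-value was computed. Alternatives were stricter thresholds, equal list lengths, high-background peaks (over 5 times the lowest background) left out, assignment within 20 kb, by the nearest bound or with all genes, other overlap rules, and other depth scalings. Python 3.11.15, pandas 2.3.3, NumPy 2.4.6 and SciPy 1.17.1 were used.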

Additional observations from a re-analysis of the deposited data

How the results depend on the processing

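The count of 6 genes with a Brg1 peak after dTAG-13 became 3 with a fold enrichment of at least 5 (Atf3, Ier2 and Jund), 0 when the −log10 q had to reach 10, and 0 with the list cut to the 234 peaks of DMSO. The 9 peaks became 4 at a −log10 q of at least 5 (at Atf3, Fosb, Ier2 and Jund), 3 at that fold enrichment, and 0 under each of the other 2 settings, which all leave fewer peaks by construction. The share of all genes under these settings was not computed. The same 6 genes had a peak without high-background peaks, within 20 kb and by the nearest bound. With all genes of the annotation, Junos took the Jun peak and Gm26802 the Fosb peak, and 4 genes were left. The number of summits that would reach a DMSO peak, 0, became 1 (the farther Atf3 summit, 7.07 scaled fragments) against the 7 fragments that, at the lowest DMSO background, give the smallest −log10 p of that list, and was 0 with the ratio of median backgrounds, 3.14. Of 76 values under alternatives 59 were 0 and stayed 0. Among them was every count at these genes for EBF1 in either condition, for Brg1 in DMSO, and for peaks shared between lists. Most of the alternatives can only remove peaks or assignments, so a 0 could not rise under them and staying 0 is no support. Only assignment by the nearest bound, overlap by summit distance and the depth scalings could have raised a 0. No paired analysis was possible because each group has 1 library. Depth limits what the DMSO Brg1 list can show here. By the scaled values, counting error aside, a peak needs more fragments than the 9 would hold at that depth. The farther Atf3 summit exceeds only the 7 fragments, which apply at the lowest DMSO background. Its own local background was 1.95 times the lowest of the dTAG-13 library, so the 7 need not suffice there.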
